A study of Mus musculus with 6 samples.

Results

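The genes of blood coagulation and fibrinolysis were followed in mouse liver RNA. They are 36 genes, set by name, of the 24034 in the deposited expression table, and each of the 36 had 1 row. They fall into 9 procoagulant factors, the 3 fibrinogen chains, 2 enzymes of the vitamin K cycle, 5 genes of the contact system, 10 anticoagulants, 4 genes of fibrinolysis and 3 of its inhibitors. The liver came from C57BL/6 mice at 25 weeks of age. The HO group (3 libraries) has the genotype lncenc13A/3A, read as homozygous for a 3A allele of Lncenc1, a long non-coding RNA gene, and the WT group (3 libraries) has the genotype lncenc1wt/wt. The submitters call the HO mice knockouts. The labels do not say what the allele changes or which substrain was used, so differences of genetic background cannot be told apart from the mutation. The RNA of Lncenc1 was not analysed here, and each genotype is taken as labelled. Separate animals are not stated for the replicates, so p-values measure the spread between these libraries, which may be technical.

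Clotting is a cascade of serine proteases that ends in thrombin, which cuts soluble fibrinogen into fibrin. Most factors, fibrinogen and most plasma inhibitors of the cascade are made by hepatocytes, while factor VIII and von Willebrand factor come mainly from endothelial cells. A contact system of factors XI and XII, plasma kallikrein and kininogen feeds into the cascade, antithrombin and protein C restrain it, and plasmin dissolves the clot. Several of these proteins need a vitamin K-dependent modification in the hepatocyte, and fibrinogen is a classic acute phase protein whose synthesis rises with interleukin-6.

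Levels are FPKM, fragments per kilobase of transcript scaled to the mapped fragments of the library. Their sum was 495570 to 518218 in each library, and the spacing of low values corresponds to a depth of about 19104200 to 24617200 reads. All 9 hepatocyte markers were detected in every library, 3 with positive and 6 with negative log2 changes. Alb, the highest, was at 25339 to 29603 FPKM in HO and 31203 to 33315 FPKM in WT, and Cps1, for a urea cycle enzyme, was the only one to pass. It had 638.7, 695.1 and 853.3 FPKM in HO and 358.5, 397.5 and 441.0 FPKM in WT (limma adjusted p = 0.0422), a call lost with no filter (0.0867), without a trend (0.0674) and without HO replicate 2 or 3 or WT replicate 1 or 2 (0.0852 to 0.166). The acute phase genes set HO replicate 1 apart from the other HO libraries. That library had the lowest HO value in 20 of the 23 genes of that list. It was lowest in 36.5% of all genes tested and in 10 of the 33 members that were tested. Fibrinogen and Serpina10 show the same split, and results for them are given with and without that library. HO replicate 1 was singled out by such low values. Leaving it out raises the change of any gene lowest there among HO, so a call made without it is not separate support. This holds for fibrinogen, Serpina10, Cpb2 and Saa1.

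Of the 36 genes, 33 averaged at least 0.5 FPKM in the 6 libraries and were tested. Of these, 2 rose in HO and none fell: F11, which encodes coagulation factor XI, and Serpine2, which encodes protease nexin-1, an inhibitor of thrombin and of plasminogen activators (limma with Benjamini-Hochberg adjustment over 13250 genes, threshold 0.05). With no adjustment, 12 of the 33 had a p under 0.05, all of them higher in HO. Among all genes tested 1.14% passed (0.325% rose and 0.815% fell), and 5.01% had an unadjusted p under 0.05 with a higher level in HO and 16.5% with a lower one. The 3 HO values lay above all 3 WT values in 17 of the 33 members, and below them in 3 (Vwf, Proc and Serpinc1), while the groups overlapped in 13. Over all genes tested, 6.42% lay fully above and 21.4% fully below. Abundant genes separate more often: at a mean of 50 FPKM or more, 13.5% of 1190 genes lay fully above and 33.5% fully below, and 14 and 2 of the 23 members at that level did so.

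The median log2 change of the 33 members, on the log2(FPKM + 0.5) scale, was 0.14, against -0.09 over all genes tested. Positive changes were found in 24 of the 33 members and in 35.4% of all genes. Median-of-ratios scaling moved the median of all genes to 0.01 and that of the members to 0.25, so the size and, for the members nearest to 0, the sign of a change depends on the scaling. Relative to the median of all genes, 28 of the 33 members were higher. Together the 36 genes made up 2.11%, 3.10% and 2.98% of the summed FPKM in the HO libraries, against 1.83%, 1.80% and 2.02% in the WT libraries. Without the fibrinogen chains these shares were 1.09%, 1.16% and 1.15% in HO and 1.02%, 1.04% and 1.08% in WT. The HO shares were thus all above the WT shares in both sums, by a far smaller margin without fibrinogen.

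**Figure D1:**
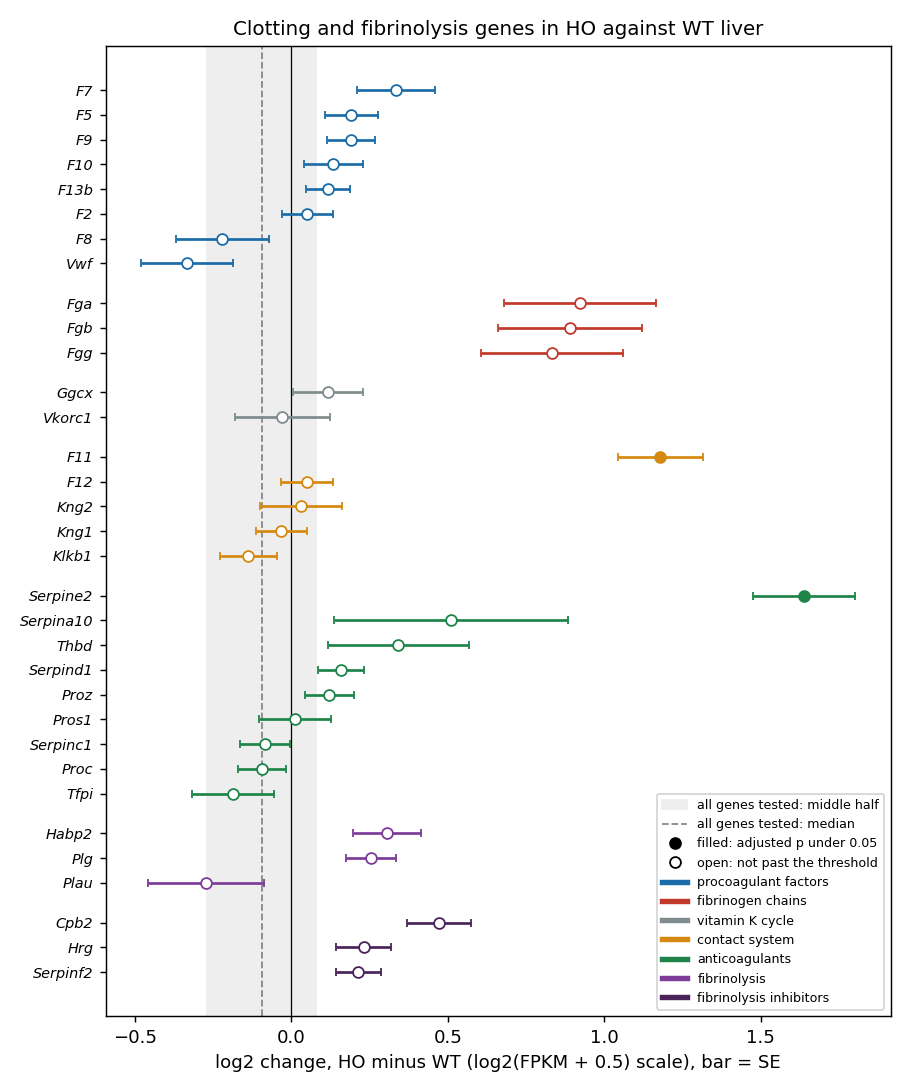
Log2 change of the 33 tested genes, HO minus WT, on the log2(FPKM + 0.5) scale, by role; points are limma estimates with SE bars, filled points passed the threshold, and the grey band and dashed line give the quartiles and the median (-0.09) of all genes tested. F11 (1.18) and Serpine2 (1.64) stand farthest to the right, followed by the 3 fibrinogen chains (0.83 to 0.92).

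Among the contact system genes, F11 was more than doubled in HO. Factor XI is a hepatocyte protease that activates factor IX. F11 had 55.4, 49.2 and 52.7 FPKM in HO replicates 1 to 3, against 22.9, 19.1 and 27.3 FPKM in WT replicates 1 to 3. The 3 HO values were close together and well above the highest WT value. The means were 52.4 ± 3.12 FPKM in HO and 23.1 ± 4.09 FPKM in WT (SD, n = 3 each), a ratio of 2.27. The log2 change was 1.18 ± 0.14 (SE, limma adjusted p = 0.0255), or 1.27 relative to the median of all genes. The call was lost without HO replicate 2 (limma adjusted p = 0.0592), HO replicate 3 (0.0624), WT replicate 1 (0.103) or WT replicate 2 (0.0965), with log2 changes of 1.05 to 1.22. F11 spans chr8:45241174-45262031 on the minus strand (mm10), overlaps no other annotated gene and shares none of its 50-base words with transcripts of another gene.

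Klkb1, which encodes plasma kallikrein, a close relative of factor XI, lies 4.66 kb from F11 on the same strand (chr8:45266689-45294859). Its values were 60.3, 54.1 and 57.6 FPKM in HO and 57.8, 65.6 and 66.0 FPKM in WT, and the groups overlapped. The log2 change of Klkb1 was -0.14 ± 0.09 (SE, limma adjusted p = 0.430). Within each library, F11 stood at 0.919, 0.910 and 0.914 of the Klkb1 level in HO, against 0.396, 0.291 and 0.413 in WT. This ratio, which does not depend on the scaling between libraries, was nearly constant in HO and separated the groups fully. Of the 50-base words of Klkb1, 42.7% are shared with the overlapping gene Gm45753, so its level is uncertain.

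The other contact system genes showed no such difference. F12, which encodes the factor that starts the contact pathway, had 210.3 ± 9.01 FPKM in HO and 203.1 ± 11.4 FPKM in WT (SD, n = 3 each), and the interval of its log2 change was -0.14 to 0.24. Kng1, one of 2 mouse genes for kininogen, the bradykinin precursor, had 557.8 ± 24.4 FPKM in HO and 570.0 ± 24.5 FPKM in WT, with an interval of -0.22 to 0.16. Its copy Kng2 had 120.2 ± 14.0 FPKM in HO and 117.8 ± 16.5 FPKM in WT. The copies share 17.2% of the Kng1 words and 19.4% of the Kng2 words, so reads can be assigned to the wrong one. The ratio of Kng1 to Kng2 was 5.14, 4.46 and 4.41 in HO and 5.24, 5.02 and 4.38 in WT, and these ranges overlapped.

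The 250 bases upstream of the RefSeq start of F11 are shown because F11 is the contact system gene that rose; capitals mark a match, on the opposite strand, to the C/EBP motif TTGCNNAA, searched with others in the fibrinogen promoters.
F11 (GRCm38.p6, chr8:45262032-45262281, minus strand): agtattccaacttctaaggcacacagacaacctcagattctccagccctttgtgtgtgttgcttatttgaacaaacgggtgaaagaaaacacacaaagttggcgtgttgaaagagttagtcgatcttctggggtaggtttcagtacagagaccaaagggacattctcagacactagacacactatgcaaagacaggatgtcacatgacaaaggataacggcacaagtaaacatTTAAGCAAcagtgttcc

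Of the anticoagulants, Serpine2 more than tripled, and no other member of that group passed. Serpine2 had 21.4, 14.7 and 14.5 FPKM in HO replicates 1 to 3, against 4.65, 5.03 and 5.30 FPKM in WT replicates 1 to 3. All HO values were far above the WT values, which lay close together, and HO replicate 1 was highest. The means were 16.9 ± 3.90 FPKM in HO and 4.99 ± 0.326 FPKM in WT (SD, n = 3 each), a ratio of 3.37. Its log2 change of 1.64 ± 0.16 was the largest of the 33 (SE, limma adjusted p = 0.0183, 95% interval 1.26 to 2.02), or 1.73 relative to the median of all genes. The call was lost without HO replicate 3 (limma adjusted p = 0.0503), WT replicate 1 (0.0933) or WT replicate 2 (0.0965), with log2 changes of 1.59 to 1.73. Serpine2 spans chr1:79794197-79861180 on the minus strand (mm10) and overlaps no other annotated gene.

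Serpine2 is known from fibroblast-like and many other cells as well as from hepatocytes, and markers of stellate cells and fibroblasts were mostly lower in HO. Of those 9 genes 8 had a negative log2 change, none passed, and their median was -0.49. Over all genes tested the median was -0.09, and 35.4% had a positive change. With no adjustment, 5 of the 9 had a p under 0.05 and were lower, against 16.5% of all genes tested. All HO values lay below all WT values in 6 of the 9, and in 21.4% of all genes tested. The summed level of the 9 was 72.0 to 92.7 FPKM in HO and 107.4 to 132.3 FPKM in WT. Dcn, the marker of that list with the highest mean, had 57.3, 50.3 and 46.3 FPKM in HO and 77.0, 74.8 and 64.6 FPKM in WT (limma adjusted p = 0.0813, and 0.0332 with array weights). Its log2 change was -0.49, and -0.38 with median-of-ratios scaling (limma adjusted p = 0.164) and -0.41 with quantile normalization (0.122). None of the 9 was at 0 in any library. Their part in the Serpine2 result was not tested.

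The 250 bases upstream of the RefSeq start of Serpine2, the member with the largest change, hold no match to the motifs searched. This start lies inside the annotated span of the gene, which on the minus strand begins at 79861180. The bases before that outer end were not searched.
Serpine2 (GRCm38.p6, chr1:79858666-79858915, minus strand): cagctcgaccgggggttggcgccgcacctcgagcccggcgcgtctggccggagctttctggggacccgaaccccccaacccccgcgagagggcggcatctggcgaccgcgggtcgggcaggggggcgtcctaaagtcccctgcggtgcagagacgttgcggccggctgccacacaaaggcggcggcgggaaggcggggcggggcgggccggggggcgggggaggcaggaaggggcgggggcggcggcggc

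No other anticoagulant passed with all libraries. Serpina10 encodes the protein Z-dependent inhibitor of factor Xa. It had 40.9 FPKM in HO replicate 1, 102.6 in HO replicate 2 and 119.1 in HO replicate 3, against 52.7, 50.3 and 64.9 FPKM in WT. HO replicate 1 was below all WT libraries, and the other HO libraries were well above them. The log2 change was 0.51 ± 0.37 (SE, limma adjusted p = 0.472), and 0.98 without HO replicate 1, where it passed (limma adjusted p = 0.0453). Without HO replicate 2 or 3 or WT replicate 1 or 2 Serpina10 did not pass (limma adjusted p = 0.667 to 0.797). Serpinc1, which encodes antithrombin, the main plasma inhibitor of thrombin, had 521.5 ± 13.6 FPKM in HO and 553.0 ± 26.2 FPKM in WT (SD, n = 3 each). Proc, which encodes protein C, the protease that inactivates factors V and VIII, had 273.3 ± 11.2 FPKM in HO and 291.3 ± 4.68 FPKM in WT. For both, all HO values lay below all WT values, as in 21.4% of all genes tested, with intervals of -0.27 to 0.10 and -0.27 to 0.08. Their signs turned with median-of-ratios scaling, to 0.030 for Serpinc1 and 0.020 for Proc.

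Serpind1, for heparin cofactor II, another thrombin inhibitor, had 250.8, 242.6 and 243.1 FPKM in HO and 216.7, 214.9 and 227.5 FPKM in WT. The groups did not overlap, and the log2 change was 0.16 ± 0.07 (SE, limma adjusted p = 0.263). Proz, for protein Z, the cofactor of the Serpina10 product, had 111.9 ± 0.387 FPKM in HO and 102.9 ± 5.99 FPKM in WT (SD, n = 3 each). Pros1, for protein S, the cofactor of protein C, had 16.5 ± 1.53 FPKM in HO and 16.3 ± 1.62 FPKM in WT. Tfpi, for the inhibitor of the tissue factor pathway, had 1.71 ± 0.194 FPKM in HO and 2.01 ± 0.150 FPKM in WT. Thbd, for thrombomodulin, the endothelial thrombin receptor that activates protein C, had 1.39 ± 0.298 FPKM in HO and 1.01 ± 0.360 FPKM in WT. Procr, for the endothelial protein C receptor, was under the filter, at 0.377, 0.126 and 0.138 FPKM in HO and 0.748, 0.505 and 0.425 FPKM in WT, so that all HO values lay below all WT values at a level too low to be tested.

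**Figure D2:**
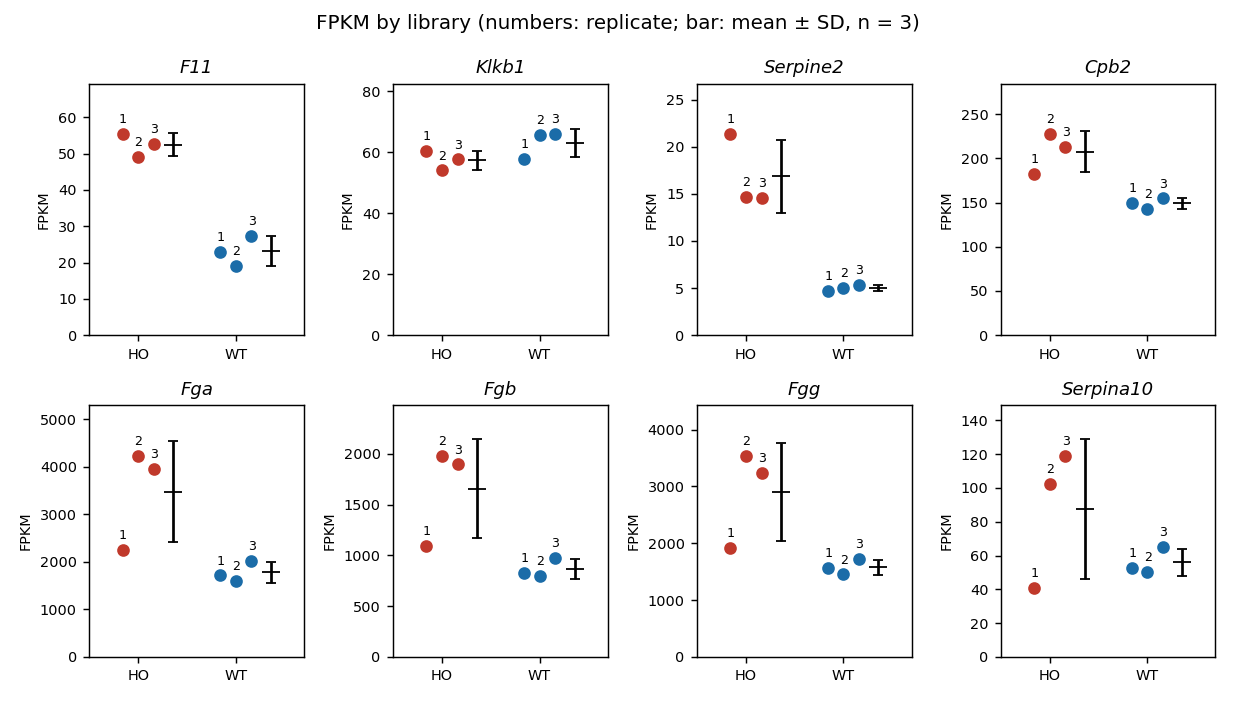
FPKM of 8 genes in each library, HO left of WT; numbers give the replicate and bars the mean ± SD (n = 3), on axes that start at 0. F11 and Serpine2 separate the groups, Klkb1 beside F11 does not, and HO replicate 1 lies nearest to WT for Cpb2 and the fibrinogen chains and below WT for Serpina10.

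The fibrinogen chains were the most abundant members and were higher in every HO library, but did not pass the test. Fga, Fgb and Fgg encode the alpha, beta and gamma chains that are assembled into 1 protein. Fga had 2255, 4236 and 3950 FPKM in HO replicates 1 to 3, against 1715, 1601 and 2017 FPKM in WT replicates 1 to 3. Fgb had 1095, 1982 and 1895 FPKM in HO, against 828.8, 796.6 and 978.2 FPKM in WT. Fgg had 1922, 3540 and 3235 FPKM in HO, against 1558, 1452 and 1721 FPKM in WT. In each chain HO replicate 1 was 1.22 to 1.27 times the WT mean, and HO replicates 2 and 3 were 2.05 to 2.38 times it. The log2 changes were 0.92 ± 0.24 for Fga, 0.89 ± 0.23 for Fgb and 0.83 ± 0.23 for Fgg (SE, limma adjusted p = 0.0994, 0.0970 and 0.108). Without HO replicate 1 they were 1.21, 1.16 and 1.10, and all 3 passed (limma adjusted p = 0.0300, 0.0292 and 0.0292). HO replicate 1 was the lowest HO library for each chain, so leaving it out had to raise these changes. The chains also passed with array weights, which give less weight to variable libraries (limma adjusted p = 0.0341, 0.0332 and 0.0360). With array weights 941 of all genes passed, against 151 in the main fit. Without HO replicate 2 or 3 or WT replicate 1 or 2 no chain passed (limma adjusted p = 0.232 to 0.287).

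The proportions of the chains varied far less than their level. Fga stood at 2.06, 2.14 and 2.08 times the Fgb level in HO and at 2.07, 2.01 and 2.06 times in WT. Fgg stood at 1.76, 1.79 and 1.71 times the Fgb level in HO and at 1.88, 1.82 and 1.76 times in WT. Both ratios stayed within narrow ranges, although the summed level of the 3 chains reached 9758 FPKM in HO replicate 2, against 3849 FPKM in WT replicate 2. The chains took 1.02%, 1.94% and 1.83% of the summed FPKM in HO, against 0.809%, 0.761% and 0.945% in WT. The genes lie together on chromosome 3 (mm10), with Fgg at chr3:83007724-83015049, Fga at chr3:83026076-83033627 and Fgb at chr3:83040141-83049863. The gaps are 11026 bases between Fgg and Fga and 6513 bases between Fga and Fgb. Fgb is on the minus strand and the others on the plus strand.

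The promoters of the fibrinogen genes are shown because the 3 genes varied together. Each is the 250 bases before the RefSeq start (GRCm38.p6), and capitals mark matches to 5 motifs searched on both strands. The stretch of Fga runs into the annotated span of that gene, which starts at 83026076. The motifs were the STAT3 site TTCNNNGAA, the type II interleukin-6 element CTGGGAA, a C/EBP motif TTGCNNAA, the palindromic HNF1 site and an HNF4 core CAAAGNCCA.
Fga (GRCm38.p6, chr3:83025903-83026152, plus strand): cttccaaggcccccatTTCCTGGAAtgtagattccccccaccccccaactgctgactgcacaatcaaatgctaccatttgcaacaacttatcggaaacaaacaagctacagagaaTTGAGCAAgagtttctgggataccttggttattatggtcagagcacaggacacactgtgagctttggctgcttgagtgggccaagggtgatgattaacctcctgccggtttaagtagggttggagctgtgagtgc
Fgb (GRCm38.p6, chr3:83049864-83050113, minus strand): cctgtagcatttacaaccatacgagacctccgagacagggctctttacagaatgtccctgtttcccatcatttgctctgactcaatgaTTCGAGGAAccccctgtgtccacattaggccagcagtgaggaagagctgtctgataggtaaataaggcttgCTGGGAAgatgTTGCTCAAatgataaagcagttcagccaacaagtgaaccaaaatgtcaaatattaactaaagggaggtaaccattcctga
Fgg (GRCm38.p6, chr3:83007474-83007723, plus strand): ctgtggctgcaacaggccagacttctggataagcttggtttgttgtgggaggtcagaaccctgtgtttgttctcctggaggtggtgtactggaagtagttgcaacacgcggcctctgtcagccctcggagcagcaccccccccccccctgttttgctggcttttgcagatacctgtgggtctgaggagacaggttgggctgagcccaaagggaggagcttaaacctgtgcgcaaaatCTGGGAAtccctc

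Fga held a STAT3 match from 234 to 226 bases before the start and a C/EBP match, on the opposite strand, from 135 to 128 bases before it. Fgb held a STAT3 match from 162 to 154 bases before the start, the interleukin-6 element from 91 to 85 and a C/EBP match from 80 to 73. Fgg held the interleukin-6 element from 13 to 7 bases before its start. In F11, the C/EBP match lay from 17 to 10 bases before the start. No 2 matches overlapped. Of all 32851 promoters in the table, 7.02% held the STAT3 motif, 9.1% the interleukin-6 element, 9.56% the C/EBP motif, 1.7% the HNF4 core and 0.00913% the HNF1 site. Among the 30 promoters of the 28 members with an entry, these numbers were 4, 4, 10, 1 and 0. A match describes these letters only.

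**Figure D3:**
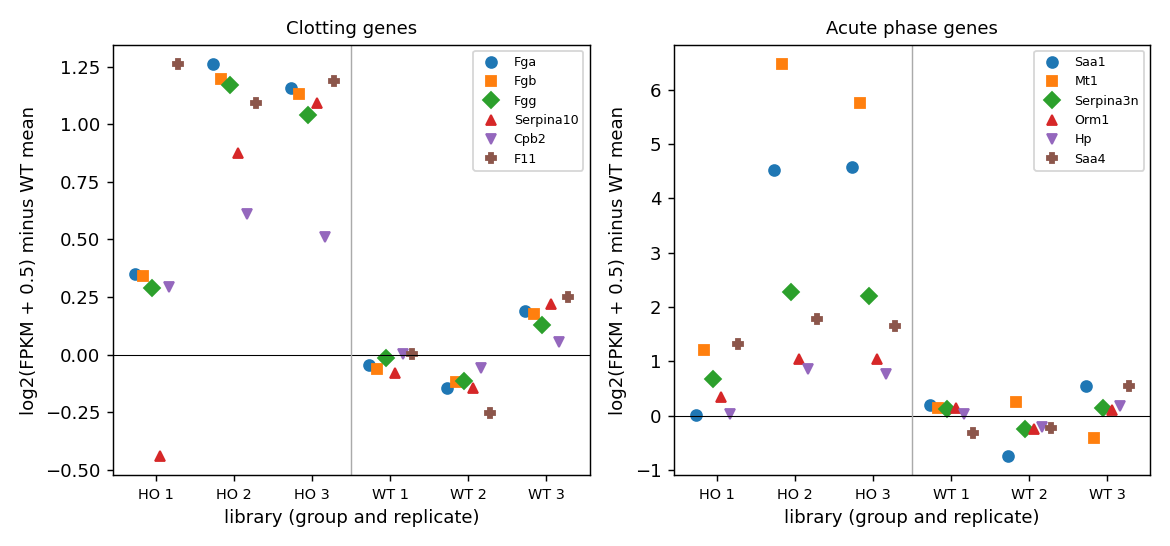
Levels in each library as log2(FPKM + 0.5) minus the WT mean, for 6 clotting genes on the left and 6 acute phase genes on the right, with HO left of WT; the vertical scales differ. HO replicate 1 lies far below HO replicates 2 and 3 for the fibrinogen chains, Serpina10 and Saa1, whereas F11 is as high in HO replicate 1 as in the others.

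Acute phase genes differed between the HO libraries in the same way. All 23 of the list were tested, 3 rose (Socs3, Saa4 and Il1r1) and none fell, and their median log2 change was 0.96. Of all genes tested, 0.325% rose and 0.815% fell, and the median was -0.09. Saa1, a serum amyloid A chosen after its values were seen, had 111.0, 2525 and 2630 FPKM in HO and 125.3, 65.6 and 161.7 FPKM in WT, and passed without HO replicate 1 (limma adjusted p = 0.0160) but not with it (0.196). Saa4, a constitutive serum amyloid A, had 412.5, 572.1 and 517.5 FPKM in HO and 133.1, 141.9 and 240.3 FPKM in WT. Socs3, a feedback inhibitor of cytokine signalling, had 24.3, 11.4 and 18.4 FPKM in HO and 2.43, 1.97 and 3.68 FPKM in WT, and was highest in HO replicate 1. Il1r1, an interleukin-1 receptor, had 35.9 ± 12.6 FPKM in HO and 10.1 ± 2.74 FPKM in WT (SD, n = 3 each, limma adjusted p = 0.0496). Each of these 3 calls was lost when HO replicate 3, WT replicate 1 or WT replicate 2 was left out (limma adjusted p = 0.0701 to 0.166), Saa4 and Il1r1 also without HO replicate 2 (0.110 and 0.114) and Il1r1 without WT replicate 3 (0.0510). With no filter all 3 were lost (limma adjusted p = 0.0513 for Socs3, 0.0763 for Saa4 and 0.0867 for Il1r1), without a trend Saa4 (0.0577) and Il1r1 (0.0701), and with a pseudocount of 0.1 Il1r1 (0.0525). The part of an acute phase response in the fibrinogen values was not tested. F11 and Serpine2, like Socs3, were highest in HO replicate 1 among the HO libraries, as were 15 of the 33 tested members in all. The share of all genes highest there was not determined. Not being lowest there is common, since 36.5% of all genes tested were lowest in that library.

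Most procoagulant factors of the hepatocyte were slightly higher in HO, and none passed. F7, for the factor that starts the cascade with tissue factor, had 51.1, 47.3 and 49.5 FPKM in HO and 35.7, 35.2 and 46.9 FPKM in WT. The lowest HO value was just above the highest WT value, and the log2 change was 0.34 ± 0.12 (SE, unadjusted p = 0.0305, limma adjusted p = 0.185). F9, for the protease that factor XIa activates, had 85.6, 90.9 and 90.2 FPKM in HO and 79.1, 80.1 and 74.3 FPKM in WT, or 0.19 ± 0.08 on the log2 scale (SE, limma adjusted p = 0.211). F10, for the protease that makes thrombin, had 180.6 ± 4.48 FPKM in HO and 164.9 ± 16.4 FPKM in WT (SD, n = 3 each). F5, for the cofactor of factor Xa, had 86.0 ± 5.25 FPKM in HO and 75.1 ± 3.05 FPKM in WT. F13b, for the carrier subunit of the fibrin-stabilising factor XIII, had 74.0 ± 0.857 FPKM in HO and 68.2 ± 1.44 FPKM in WT. For F5, F9, F10 and F13b, as for F7, all HO values were above all WT values, as in 6.42% of all genes tested.

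F2, which encodes prothrombin, had 773.2 ± 35.4 FPKM in HO and 745.8 ± 23.5 FPKM in WT, with overlapping groups. The log2 change of F2 was 0.05, its interval -0.14 to 0.25, and its sign turned to -0.036 with quantile normalization. F7, F10 and Proz lie next to each other on chromosome 8 on the plus strand, from 13026034 to 13076026 (mm10), with gaps of 1498 and 4237 bases. Their log2 changes were 0.34 for F7, 0.14 for F10 and 0.12 for Proz. Within a library F7 stood at 0.290, 0.256 and 0.275 of the F10 level in HO and at 0.245, 0.203 and 0.268 in WT, and these ranges overlapped. Of the vitamin K cycle, Ggcx, for the carboxylase that modifies these factors, had 26.6 ± 1.58 FPKM in HO and 24.6 ± 3.08 FPKM in WT (SD, n = 3 each). Vkorc1, for the reductase that warfarin inhibits, had 142.0 ± 6.53 FPKM in HO and 146.8 ± 29.2 FPKM in WT. It shares 44.7% of its words with the overlapping gene Gm21974, so its level is uncertain. In neither of these enzymes did the groups separate.

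Members made by endothelial cells or macrophages were low in both groups, and several had a lower mean in HO. Thbd (1.39 against 1.01 FPKM in WT) and F13a1 (0.183 against 0.0742 FPKM in WT) had a higher one. Vwf, for the platelet-binding von Willebrand factor, had 1.44, 1.05 and 1.13 FPKM in HO and 1.77, 1.49 and 1.68 FPKM in WT. All HO values lay below all WT values, with a log2 change of -0.33 ± 0.15 (SE) at a limma adjusted p of 0.247. F8, for the cofactor of factor IX, had 0.686, 0.554 and 0.623 FPKM in HO and 0.852, 0.902 and 0.668 FPKM in WT, where the highest HO value exceeded the lowest WT value (limma adjusted p = 0.439). In whole liver, fewer cells of a type and less RNA per cell cannot be told apart. Of 10 endothelial markers, 9 had a negative log2 change and none passed, with a median of -0.21. Over all genes tested the median was -0.09, and 35.4% had a positive change. The summed level of those markers was 57.6 to 64.0 FPKM in HO and 64.6 to 79.3 FPKM in WT, and none was at 0 in any library. The marker of that list with the highest mean, Clec4g, had 16.1, 24.2 and 23.0 FPKM in HO and 20.8, 27.5 and 23.1 FPKM in WT. F13a1, for the catalytic subunit of factor XIII, known from macrophages and platelets, was under the filter. It was listed at 0, 0.349 and 0.202 FPKM in HO and at 0.0662, 0.0643 and 0.0922 FPKM in WT. All 10 Kupffer cell and macrophage markers had negative log2 changes and none was at 0, with sums of 107.2 to 131.7 FPKM in HO and 122.5 to 206.6 FPKM in WT. Their part in these values was not tested.

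**Figure D4:**
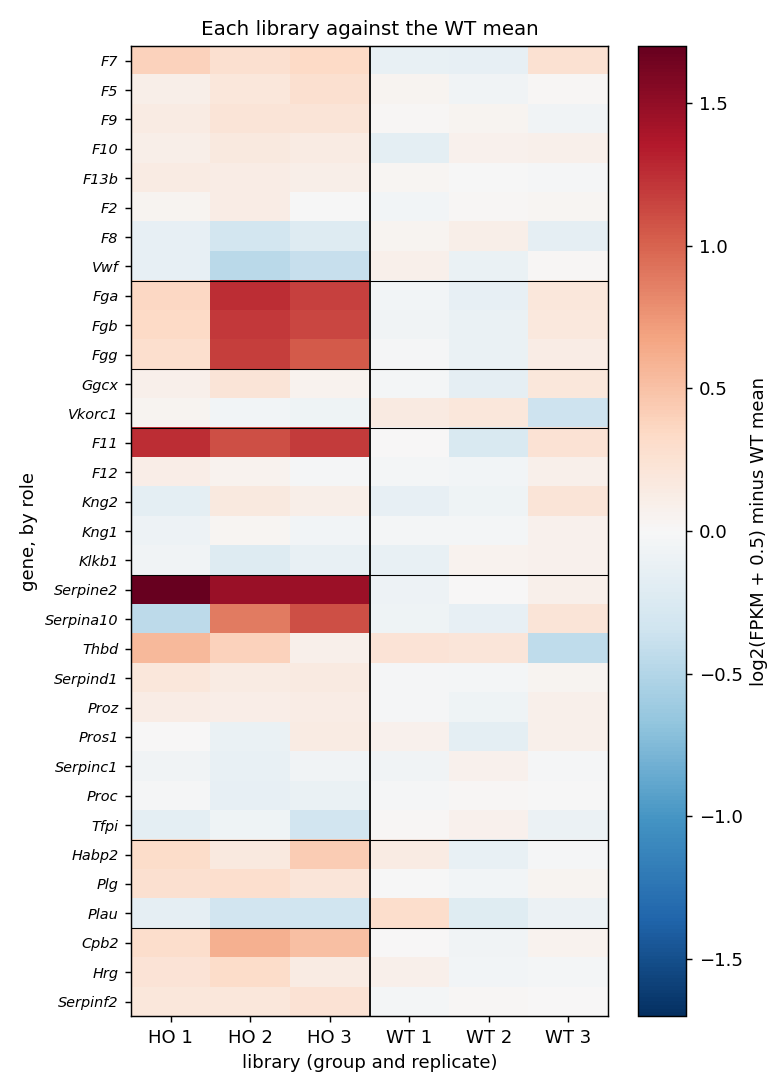
Each of the 33 tested genes in each library as log2(FPKM + 0.5) minus the WT mean, by role, with HO left of WT. The rows of F11 and Serpine2 are dark red in all HO libraries, those of the fibrinogen chains mainly in HO replicates 2 and 3, and the inhibitors of fibrinolysis, at the bottom, are pale red throughout HO.

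Among the genes of clot dissolution, the hepatocyte genes were higher in HO by small margins and none passed. Plg, for plasminogen, the precursor of plasmin, had 911.0, 918.9 and 873.5 FPKM in HO and 751.8, 732.3 and 783.3 FPKM in WT. The groups stood well apart for a change of this size, with a log2 change of 0.25 ± 0.08 (SE, unadjusted p = 0.0150, limma adjusted p = 0.138). Habp2, for a protease that activates factor VII and pro-urokinase, had 80.2, 72.0 and 87.0 FPKM in HO and 70.6, 58.9 and 63.6 FPKM in WT, which gave a log2 change of 0.31 ± 0.11 (SE) at a limma adjusted p of 0.169. The plasminogen activators themselves were barely detected. Plau, for urokinase, had 0.410 ± 0.0680 FPKM in HO and 0.610 ± 0.214 FPKM in WT (SD, n = 3 each). Plat, for tissue plasminogen activator, was under the filter and listed at 0.184, 0.0391 and 0 FPKM in HO and at 0.297, 0.205 and 0.183 FPKM in WT.

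All 3 inhibitors of fibrinolysis had HO values above every WT value. Over all genes tested 6.42% lay fully above, and 13.5% of those at a mean of 50 FPKM or more. Cpb2, for the carboxypeptidase that removes plasminogen-binding sites from fibrin, had 182.7, 227.6 and 212.7 FPKM in HO and 149.4, 143.1 and 154.6 FPKM in WT. HO replicate 1 was again the lowest of HO. The log2 change was 0.47 ± 0.10 (SE, limma adjusted p = 0.0760), the smallest p of the members that did not pass, and 0.56 without HO replicate 1, where it passed (limma adjusted p = 0.0475). Cpb2 also passed with array weights (limma adjusted p = 0.0307). Without HO replicate 2 or 3 or WT replicate 1 or 2 it did not pass (limma adjusted p = 0.181 to 0.237). Serpinf2, for alpha-2-antiplasmin, the main plasmin inhibitor, had 334.6, 334.5 and 346.0 FPKM in HO and 285.9, 295.6 and 292.7 FPKM in WT, with a log2 change of 0.22 ± 0.07 (SE) and a limma adjusted p of 0.156. Hrg, for histidine-rich glycoprotein, which binds plasminogen and heparin, had 511.6, 543.1 and 480.9 FPKM in HO and 460.7, 420.3 and 426.3 FPKM in WT, with a log2 change of 0.23 ± 0.09 (SE) and a limma adjusted p of 0.189. As for the proportion of the enzyme precursor to its inhibitor, Plg stood at 2.72, 2.75 and 2.52 times the Serpinf2 level in HO and at 2.63, 2.48 and 2.68 times in WT, with overlapping ranges.

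Of 25 further genes of clotting and fibrinolysis, 18 were tested and none passed in either direction, with 10 positive and 8 negative log2 changes. An unadjusted p under 0.05 was found for 4 genes in each direction, against 5.01% higher and 16.5% lower over all genes tested. The smallest p values belonged to Fn1, Anxa2, Gas6 and Pzp. Fn1, for fibronectin, which is cross-linked into the clot, had 368.4, 473.2 and 482.8 FPKM in HO and 299.2, 263.4 and 316.9 FPKM in WT (limma adjusted p = 0.0803). Pzp, for a broad protease inhibitor of plasma, had 1081, 1409 and 1442 FPKM in HO and 848.6, 798.8 and 1037 FPKM in WT (limma adjusted p = 0.110). Both were lowest in HO replicate 1 among the HO libraries. Anxa2, for a cell surface receptor of plasminogen, had 6.34, 3.51 and 4.77 FPKM in HO and 19.8, 14.3 and 7.99 FPKM in WT (limma adjusted p = 0.0892). Gas6, a vitamin K-dependent ligand related to protein S, had 8.03, 11.6 and 15.3 FPKM in HO and 23.1, 19.2 and 20.3 FPKM in WT (limma adjusted p = 0.0932).

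Among 12 regulators of hepatocyte genes, 1 passed, against 1.14% of all genes tested. Nfe2l2, for the oxidative stress factor NRF2, fell to 25.0, 24.1 and 25.3 FPKM in HO, against 42.0, 37.7 and 35.8 FPKM in WT, with a log2 change of -0.62 ± 0.09 (SE) at a limma adjusted p of 0.0353. The call was lost with median-of-ratios scaling (limma adjusted p = 0.0581), with quantile normalization (0.0554), with no filter (0.0601), without a trend (0.0674) and when any library other than WT replicate 3 was left out (0.0515 to 0.140). The next smallest p values were those of Foxa3, Stat3 and Hnf4a. Stat3, which carries the interleukin-6 signal to the nucleus, had 37.4, 58.9 and 65.0 FPKM in HO and 29.6, 23.4 and 33.5 FPKM in WT (limma adjusted p = 0.0977), with HO replicate 1 again the lowest of HO. Foxa3, a liver forkhead factor, had 44.5 ± 6.59 FPKM in HO and 25.8 ± 6.40 FPKM in WT (SD, n = 3 each, limma adjusted p = 0.0918). Hnf4a, a nuclear receptor that binds the promoters of many clotting genes, had 203.4 ± 33.9 FPKM in HO and 146.2 ± 26.4 FPKM in WT (limma adjusted p = 0.171).

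The summed markers of platelets and of red cells were lower in HO. The sum of 7 platelet and megakaryocyte markers was 1.90 to 3.72 FPKM in HO and 4.05 to 4.31 FPKM in WT, and 2 of the 7 were tested. Gp6 was at 0 in 4 of the 6 libraries, Treml1 in 5 and Gp9 in 3. The marker with the highest mean, Itga2b, had 1.75, 0.757 and 0.643 FPKM in HO and 1.63, 2.13 and 2.14 FPKM in WT. The sum of 5 erythroid markers was 547.5, 364.8 and 319.2 FPKM in HO and 667.2, 644.4 and 661.6 FPKM in WT. The 4 globin genes among them were lower in HO without overlap, while Alas2, for the first enzyme of haem synthesis in red cells, had 74.6, 54.3 and 58.6 FPKM in HO and 55.9, 56.1 and 55.1 FPKM in WT. Over all genes tested 21.4% lay fully below, and 33.5% of those at a mean of 50 FPKM or more. In neither list did a gene pass. Their part in the values of Vwf and F13a1 was not tested.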

How the data were processed

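RNA of flash-frozen mouse liver was made into directional Illumina libraries, per the labels' protocols. The authors deposited FPKM values for each gene in each library. Per the submitters' processing notes, the build was mm10 and the tools were StringTie, HISAT2, HTSeq and DESeq2, whose roles and versions are not stated there. The sources used here do not say whether counting used strand, so reads of members that overlap other genes may be assigned wrongly: F5, F8, F13a1, Fgg, Vkorc1, Klkb1, Kng2, Serpinc1, Serpind1, Plg, Habp2 and Cpb2. Low values were whole multiples of a 1-read step (tolerance 0.02 reads) in 28.8% to 30.7% of cases, too few to recover counts, so no count model was fitted.

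The 13250 genes that averaged at least 0.5 FPKM were fitted as log2(FPKM + 0.5), which understates the change of low genes, with limma 3.58.1 in R 4.3.3: 2 groups, no block, eBayes with a mean-variance trend, two-sided, Benjamini-Hochberg adjustment. The fit was tested on simulated data. At the filter few reads are behind a value, so the precision of low genes is poor. Positions and exonic lengths are from GENCODE mouse release 21 (mm10), in which all 24034 identifiers were found; promoters are from RefSeq (GRCm38.p6), where 28 of 36 genes matched. Shared sequence is the percent of the 50-base words of a gene's transcripts found in other genes' transcripts.

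The members, lists and tests were chosen with earlier results of these data known. Named beside the members were the 4 further clotting genes and 4 regulators with the smallest p, up to 4 acute phase genes past the threshold, and the marker with the highest mean for the lists that touch a result. Biliary, mesothelial and neutrophil and monocyte marker lists had no gene past the threshold. The fit was repeated without each library in turn, with a block for replicate number, with array weights (statmod 1.5.0), with robust eBayes and with no trend. Values were also rescaled by median-of-ratios or quantiles, the pseudocount was set to 1 or 0.1, and the filter was dropped or raised to 1 FPKM. Tables and figures used Python 3.11.15, numpy 2.4.6, pandas 2.3.3 and matplotlib 3.10.9.

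Values of 1 further gene are not reported here.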

Additional observations from a re-analysis of the deposited data

How the results depend on the processing

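F11 and Serpine2 were called under every setting that used all libraries without a block, and kept their sign under all settings. The count of members past the threshold was 2, and 6 with array weights (F11, Serpine2, the 3 fibrinogen chains and Cpb2). Leaving out single libraries gave 0 to 7 members: 7 without HO replicate 1, 1 without HO replicate 2 (Serpine2), 0 without HO replicate 3, WT replicate 1 or WT replicate 2, and 2 without WT replicate 3. Each such fit has fewer libraries. The count over all genes was 151, against 100 with a pseudocount of 0.1, 40 with no filter, 77 without a trend and 941 with array weights, and 6 to 259 when a library was left out. The split of calls was 43 higher and 108 lower, against 70 and 64 under median-of-ratios scaling, while quantile normalization gave 56 and 72. The median over members was 0.25 with median-of-ratios scaling and 0.21 after quantile normalization, and 0.12 to 0.17 when a library was left out. The cause of these shifts was not tested.

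Signs turned for F2 with quantile normalization (-0.036), for Kng1 (0.082), Proc (0.020) and Serpinc1 (0.030) with median-of-ratios scaling, and for Vkorc1 with both (0.085 and 0.065). When a library was left out, the log2 change ran from -0.066 to 0.0040 for Kng1, -0.040 to 0.14 for Kng2, -0.070 to 0.078 for Pros1 and -0.20 to 0.070 for Vkorc1. None of these was called in any setting.

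With the replicate number as a block, 25 genes and 0 members were called, with limma adjusted p = 0.0515 for F11 and 0.0564 for Serpine2. The calls of Nfe2l2 (0.0837), Saa4 (0.0614) and Cps1 (0.0571) were also lost under the block. Deviations of same-numbered libraries from their group means correlated at 0.0661, -0.0282 and 0.0147, and not every library correlated best with its own number, so the numbers are not taken as pairs.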

Other observations

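F2r, which encodes a thrombin receptor and was chosen after its values were seen, had 13.7, 6.96 and 9.02 FPKM in HO replicates 1 to 3, against 7.25, 5.17 and 8.76 FPKM in WT replicates 1 to 3 (limma adjusted p = 0.395). It was highest in HO replicate 1, as were Socs3 and 15 of the 33 tested members, among them F11 and Serpine2. Most acute phase genes were lowest in that library among the HO libraries.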
